A study of Mus musculus with 35 samples.

Results

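After 5 days at 6 °C, interscapular brown adipose tissue (iBAT) of 5 mice was compared with iBAT of 5 mice kept at room temperature (RT), gene by gene, in bulk RNA-seq libraries. These 10 libraries are 10 of the 35 in the series, which also holds 5 mice for each of 5 shorter cold exposures, from 6 hours to 4 days. They were chosen by their labels alone, and no gene was selected beforehand: all 10733 genes that passed a filter on low counts were tested. All 10 mice were male C57BL/6J, 9 to 10 weeks old and fed chow, and the labels give no other allele or treatment for either group. Mice in the cold were housed singly at 6 °C with no nesting material, and RT mice were in the colony at 24 ± 2 °C, so temperature, single housing and bedding cannot be told apart in this comparison. One iBAT pad per mouse gave the RNA, and 250 ng entered a 3′-end library (QuantSeq), in which each transcript is read near its polyadenylated end. Each library is therefore 1 mouse, and n = 5 per group throughout.

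Brown adipose tissue burns fuel to make heat. In the cold, sympathetic nerves release noradrenaline, β-adrenergic receptors raise cAMP in brown adipocytes, stored triglyceride is broken down, and uncoupling protein 1 (UCP1) lets protons re-enter the mitochondrial matrix without making ATP. When cold lasts for days the tissue also takes up glucose and lipoprotein lipid, makes fatty acids while it oxidises them, builds mitochondria, and grows by proliferation of stromal progenitors. The comparison asks what the transcriptome of the acclimated tissue looks like once the first hours of the response are past.

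Total counts ran from 4200294 to 5709449 per library and did not separate the groups. Genes with at least 1 count numbered 17953 to 20246 in the RT mice and 16080 to 17017 in the cold mice, without overlap (exact permutation test, two-sided p = 0.00794, the smallest that 5 against 5 allows). The share of counts on the mitochondrial genome was 39.9% ± 1.15 (SD) at RT and 40.2% ± 4.24 in the cold (exact permutation test, p = 0.913). Among library pairs, correlations of log2 CPM (counts scaled to a common library size) lay between 0.956 and 0.973 within RT, 0.954 and 0.965 within the cold group, and 0.886 and 0.929 between them. The first principal component, with 53.0% of the variance, separated the groups. The second, with 8.5%, spread mice within both groups. Cold mice 1 and 5 and RT mouse 5 lay towards one end, and cold mouse 3 lay at the other. The numbers only name mice within a group and do not pair them.

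At an adjusted p below 0.05, 4165 genes (38.8% of those tested) were differentially expressed (DEGs): 2167 higher (20.2%) and 1998 lower (18.6%) after 5 days. Of these, 592 rose and 632 fell by at least 1 on the log2 scale, and 135 rose and 80 fell by at least 2. The 10 values did not overlap between groups for 1436 genes that were higher (13.4%) and 1222 that were lower (11.4%). These splits depend on scaling. The TMM factors used here make the libraries comparable over the bulk of genes, and with library size alone the median of all genes shifted by -0.23 and the split became 1194 higher and 3347 lower, so every direction below is relative to that median, and lists whose balance turned are named as they come. In bulk tissue, fewer cells of a type and less RNA per cell cannot be told apart. Fits that leave out mice apply the filter on low counts anew, so list counts under them can cover other members. Below, CPM values are given mouse by mouse in the order 1 to 5, fold changes are log2(cold 5 days / RT) ± SE, adjusted p-values are Benjamini-Hochberg, and "rose", "fell", "higher" and "lower" are used of genes that passed this threshold in the quasi-likelihood test of edgeR.

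Genes that were close to silent at RT and well expressed after 5 days led the increases. *Bmp8b*, a TGFβ-family ligand secreted by brown adipocytes, had 2 counts in all RT libraries together and 675 in the cold libraries, a ratio of 372 (95% counting interval 102 to 3075), with 39.3, 12.4, 18.4, 27.6 and 46.9 CPM in the cold mice. *Bdh1*, the mitochondrial β-hydroxybutyrate dehydrogenase, had 4 counts at RT against 629, a ratio of 173 (67.3 to 637). Its cold values of 24.1, 28.3, 29.4, 24.6 and 29.9 CPM varied far less between mice than those of *Bmp8b*. *Cpne5*, a calcium-dependent membrane-binding copine, went from 0.998, 1.01, 0.225, 0.687 and 0.385 CPM to 61.6, 41.9, 42.4, 31.9 and 54.8 CPM, a fold change of 6.07 ± 0.27 (SE, adjusted p = 7.14e-11). *Elovl3*, which elongates saturated fatty acids to very long chains, had 13.8, 5.45, 5.84, 4.46 and 0.77 CPM at RT and 547, 578, 527, 563 and 620.5 CPM in the cold. The 5 cold values of *Elovl3* averaged 567 ± 35.5 CPM (SD), while its RT values spread over more than an order of magnitude. The loci *Gm32468* (5.46), *2310069B03Rik* (4.40) and *Gm15241* (4.84), none with a role known here, were in the same range. *Gm15241* lies antisense to *Adgrg2*, and the strand setting of the counting is not given, so its reads and those of *Adgrg2* cannot be told apart.

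The largest decreases were of a different kind, and most were of genes well expressed at RT. *Car3*, the abundant carbonic anhydrase III of adipocytes, fell from 5988, 6677, 6455, 6714 and 6529 CPM to 727, 1644, 617, 650.2 and 714 CPM (-2.89 ± 0.22 SE, adjusted p = 3.15e-08). *Cfd*, adipsin, fell from 2097, 2908, 2263, 1950.4 and 2233 CPM to 218, 541, 417, 304 and 215 CPM (-2.76 ± 0.22 SE, adjusted p = 4.16e-08). In both genes, and in *Apoe* (apolipoprotein E, -2.40) and *Aqp1* (a water channel of capillary endothelium, -2.94), cold mouse 2 had the highest value of its group, and no cold mouse reached the RT range. *Slc16a7*, the monocarboxylate transporter MCT2, went from 22.2, 17.1, 20.2, 20.8 and 16.9 CPM to 0.669, 1.13, 0.673, 4.06 and 1.04 CPM (-3.63 ± 0.32 SE, adjusted p = 1.32e-07). *Hcar1*, the lactate receptor that restrains lipolysis, fell from 34.8 ± 7.14 to 5.11 ± 1.20 CPM (-2.77). *Svep1*, a large extracellular matrix adhesion protein, fell by 3.19 on the log2 scale, and RT mouse 2, at 88.1 CPM, was far above the other RT mice, all at or below 36.7 CPM. *Angpt1*, the angiopoietin ligand of TEK, fell from 49.1 ± 6.58 to 9.44 ± 1.20 CPM, *Impdh1*, of guanine nucleotide synthesis, from 145 ± 57.6 to 21.4 ± 3.64 CPM, and the locus *5930430L01Rik* from 20.1 ± 5.90 to 3.43 ± 0.947 CPM. The clock-output genes *Dbp* and *Per3*, described below, complete the 12.

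**Figure D1:**
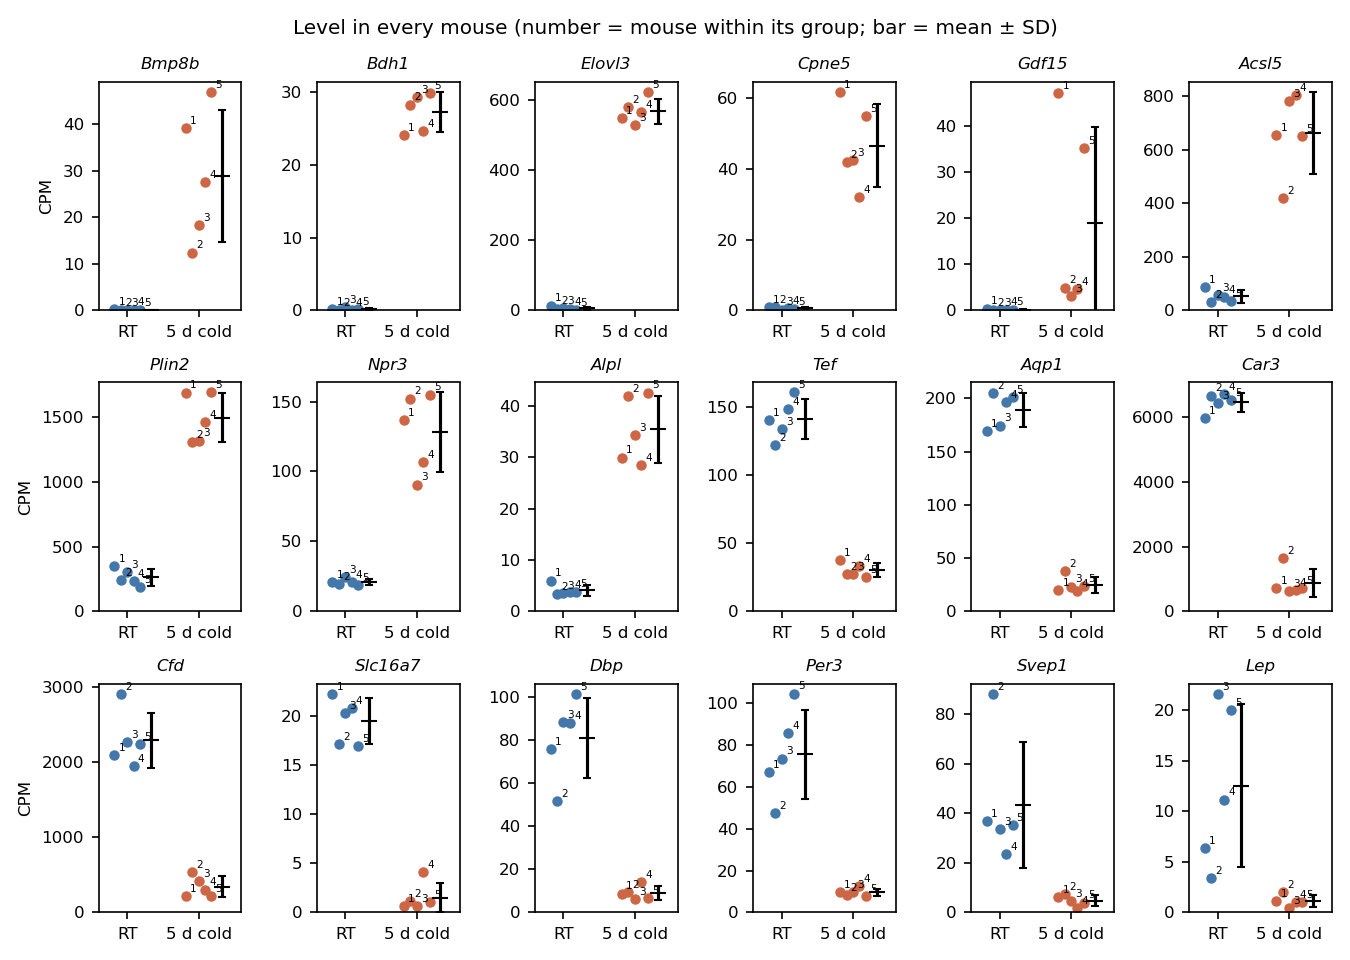
CPM of 18 genes in each RT mouse (blue) and each mouse after 5 days of cold (orange), with numbers naming the mouse within its group and bars giving mean ± SD, cut at 0. In every panel the groups do not overlap, and *Bmp8b* and *Gdf15* differ more between cold mice than *Bdh1* or *Elovl3*.

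Transfer RNA genes of the mitochondrial genome were well represented among the extremes. This set was singled out after its values were seen, because mitochondrial tRNA genes stood among the 12 largest increases. The DNA of the 4 among them, from the GENCODE M21 transcripts (GRCm38, mitochondrial genome), is shown 5′ to 3′ because the whole counted gene is shorter than 80 bases, with the anticodon in capitals.
mt-Tl2 (leucine, chrM:11671-11741, plus strand): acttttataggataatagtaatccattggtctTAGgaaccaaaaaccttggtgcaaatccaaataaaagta
mt-Tc (cysteine, chrM:5192-5257, minus strand): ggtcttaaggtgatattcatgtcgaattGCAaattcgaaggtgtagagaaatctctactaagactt
mt-Tp (proline, chrM:15356-15422, minus strand): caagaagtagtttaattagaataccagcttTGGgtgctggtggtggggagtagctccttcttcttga
mt-Tl1 (leucine, chrM:2676-2750, plus strand): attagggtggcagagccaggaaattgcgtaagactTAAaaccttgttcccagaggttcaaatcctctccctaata

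*mt-Tc* had 54.9, 33.5, 69.0, 22.5 and 11.9 CPM at RT and 569, 459.6, 730.4, 501 and 482 CPM in the cold (3.85 ± 0.32 SE, adjusted p = 6.76e-08). *mt-Tl1* had 58.1, 39.5, 49.0, 37.8 and 21.0 CPM and 661, 359, 269.5, 390.2 and 977 CPM (3.69 ± 0.32 SE, adjusted p = 9.3e-08), with cold mice 1 and 5 highest. Of the 22 mitochondrial tRNA genes in the table, 13 passed the filter, 8 on the plus and 5 on the minus strand, and all 13 were higher, by 0.96 to 3.85 with a median of 2.84, with no overlap between groups in 11. Under library size alone 12 of them stayed called. Their summed level was 266 to 813 CPM at RT and 2281 to 4556 CPM in the cold. Neither ribosomal RNA gene was called (*mt-Rnr1* 0.27, *mt-Rnr2* 0.24). Of 8 protein-coding mitochondrial genes tested, 3 were higher, all subunits of complex I: *mt-Nd3* 1.90 (adjusted p = 2.11e-05), *mt-Nd6* 1.13 (adjusted p = 3.29e-05) and *mt-Nd1* 1.001 (adjusted p = 5.66e-05). *mt-Co1*, of cytochrome oxidase, was at 7644 ± 943 and 8400.1 ± 754 CPM (adjusted p = 0.388), and *mt-Cytb*, of complex III, at 24583, 26903, 26739, 25091 and 24379 CPM and 10289, 26793, 24440.0, 27772 and 15831 CPM (adjusted p = 0.297, called lower with library size alone at -0.54, adjusted p = 0.0145), where cold mice 1 and 5 were the only ones far below RT. Reads from nuclear copies of these genes, from unprocessed precursors and from overlapping neighbours (*mt-Ts2* beside *mt-Tl2*, *mt-Nd5* opposite *mt-Nd6*, *mt-Ti* beside *mt-Nd1*) cannot be separated from the genes' own in these counts.

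**Figure D2:**
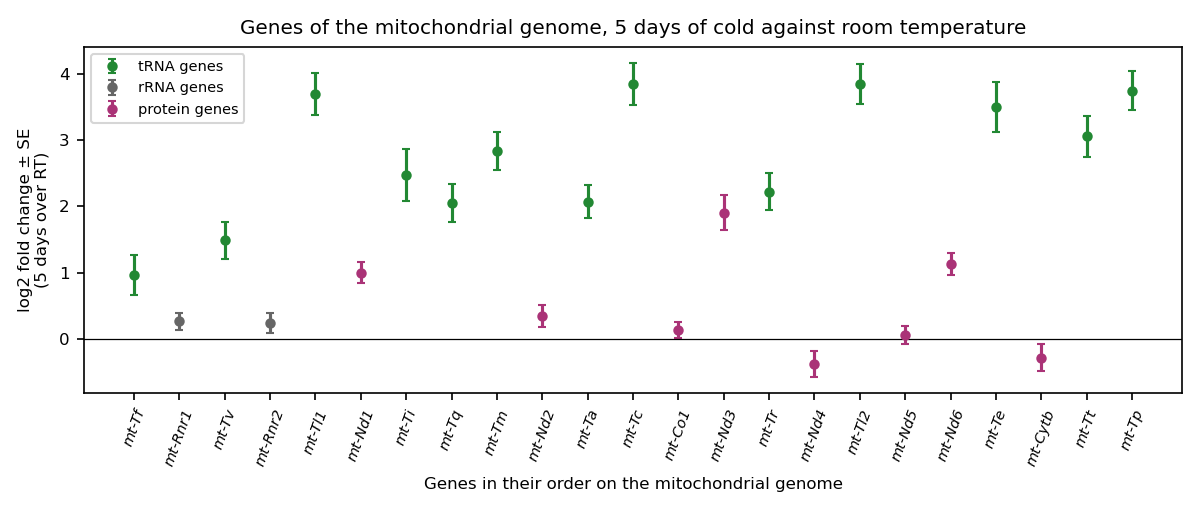
Log2 fold change (5 days over RT) with SE of every tested gene of the mitochondrial genome, in genome order, for tRNA (green), rRNA (grey) and protein-coding (purple) genes. The 13 tRNA genes lie between 0.96 and 3.85, while the rRNA genes and 5 of the 8 coding genes lie near 0 and were not called.

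Of 19 tested genes of the thermogenic programme, 8 were higher and 5 lower. *Ucp1* was at 2902, 2054, 2178, 1460.0 and 1365 CPM at RT and 5992, 7670.0, 8316, 9193 and 8183 CPM after 5 days (1.98 ± 0.18 SE, adjusted p = 2.2e-07). *Dio2*, which makes active thyroid hormone inside the cell, rose by 3.21, and *Ppargc1a*, the coactivator of mitochondrial biogenesis, by 1.97. The regulators of brown adipocyte identity *Prdm16* (-0.66, adjusted p = 0.00227), *Ebf2* (-0.71, adjusted p = 6.26e-05) and *Cebpa* (-0.78, adjusted p = 5.34e-05) were lower, as was *Ppargc1b* (-0.46, adjusted p = 0.00391), a relative of *Ppargc1a*. *Cidea*, a lipid droplet protein used as a brown fat marker, was at 2540.3 ± 161 CPM at RT and 2576 ± 361 CPM in the cold (adjusted p = 0.907). The median of this list was 0.10, against -0.02 over all genes, and -0.12 with library size alone.

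Among adrenergic receptors and enzymes of the cAMP pathway, 6 of 17 genes were higher and 4 lower (4 and 6 with library size alone). *Adcy3*, an adenylyl cyclase, went from 53.3, 49.2, 46.1, 37.1 and 29.5 CPM to 196, 221, 262, 193 and 177 CPM (2.29 ± 0.15 SE, adjusted p = 4.79e-09). *Adrb3*, the main β-receptor of adipocytes, rose by 0.61 (adjusted p = 0.0148), a call lost with library size alone (0.38, adjusted p = 0.114), and *Adrb1* was at 50.8 ± 16.6 and 40.8 ± 5.71 CPM (adjusted p = 0.181), which was called lower with library size alone (-0.55, adjusted p = 0.0169). *Rgs2*, which shortens G-protein signals, was lower at -1.78, although RT mouse 1, at 115 CPM, lay inside the cold range of 73.0 to 143 CPM. Of 7 genes of creatine and calcium cycling, 5 were higher and none lower. The number lower was 1 with library size alone and 2 without cold mouse 1. Without both cold mice 1 and 5 the counts were 4 and 1. *Alpl*, tissue-nonspecific alkaline phosphatase, went from 5.99, 3.43, 3.60, 3.78 and 3.85 CPM to 29.9, 41.9, 34.3, 28.5 and 42.5 CPM (3.09 ± 0.18 SE, adjusted p = 1.06e-09), and *Ckb*, brain-type creatine kinase, from 60.8 ± 14.5 to 265 ± 43.0 CPM (2.12 ± 0.16 SE, adjusted p = 1.61e-08). *Gk*, glycerol kinase, which lets adipocytes re-use glycerol, rose by 1.63 (adjusted p = 3.39e-05).

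Fatty acid and sterol synthesis was among the groups with the most members higher. In de novo lipogenesis, 12 of 18 genes were higher and 2 lower, with a median of 0.91. *Acly*, which makes cytosolic acetyl-CoA from citrate, was at 491, 77.2, 535, 248 and 251 CPM and 1048, 806, 1527, 2289 and 1222 CPM (2.11 ± 0.37 SE, adjusted p = 0.000209). RT mouse 2 had the lowest *Acly* and also the lowest *Fasn* (fatty acid synthase), at 446 CPM against 1247 CPM or more in the other RT mice, so these fold changes carry the spread of the controls. *Elovl6* rose by 2.16 ± 0.20 (SE, adjusted p = 2.09e-07) and *Scd2* by 2.59 ± 0.23 (SE, adjusted p = 1.16e-07), whereas *Scd1*, the major stearoyl-CoA desaturase of adipose tissue, was at 3775 ± 718 and 4052 ± 755 CPM (adjusted p = 0.616). *Srebf1*, which encodes the transcription factor SREBP1, was lower (-0.63, adjusted p = 0.000434), and so was *Pnpla3* (-1.25, adjusted p = 0.000708).

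In cholesterol synthesis and uptake, 14 of 21 genes were higher and 1 lower (median 1.10). *Insig1*, the sterol-sensing anchor of the SREBP system, went from 49.9, 32.7, 47.7, 31.9 and 36.8 CPM to 148, 130.3, 261, 187 and 115 CPM (2.08 ± 0.20 SE, adjusted p = 3.01e-07). *Nsdhl* rose by 2.17 and *Sqle*, squalene epoxidase, by 2.31, both enzymes of the pathway. The exception was *Fdft1*, squalene synthase, at -1.77, whose annotated gene overlaps *Ctsb* on the other strand, so its value is uncertain.

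In triglyceride synthesis and lipid droplets, 9 of 16 genes were higher and 3 lower. *Plin2*, a coat protein of small droplets, went from 348, 242, 306, 231 and 185 CPM to 1692, 1310.0, 1321, 1465 and 1694 CPM (2.51 ± 0.15 SE, adjusted p = 1.9e-09). *Agpat2* (1.71) and *Gpd1* (1.35), which lead to phosphatidic acid and glycerol-3-phosphate, rose, while *Dgat2* (-0.80), an enzyme of the last step of triglyceride synthesis, and *Plin4* (-0.91) fell. In lipolysis, *Mgll*, the monoglyceride lipase, rose (0.87, adjusted p = 0.000234) and *Ces1f*, a carboxylesterase, fell (-1.73, adjusted p = 4.15e-05). *Pnpla2*, the triglyceride lipase ATGL, was at 1674 ± 84.8 and 1602 ± 158 CPM (adjusted p = 0.654, called lower with library size alone at -0.30, adjusted p = 0.0191), and *Lipe*, hormone-sensitive lipase, at 1043 ± 174 and 1162 ± 86.1 CPM (adjusted p = 0.309).

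Genes of lipid uptake rose in part. *Mfsd2a*, a transporter of lysophosphatidylcholine carrying docosahexaenoic acid, went from 0.399, 0.807, 0, 0 and 0 CPM to 10.9, 21.5, 7.18, 5.08 and 30.9 CPM (5.85 ± 0.68 SE, adjusted p = 2.92e-06). *Acsl5*, an acyl-CoA synthetase, went from 88.3, 30.0, 58.4, 48.4 and 35.2 CPM to 656, 420.2, 783, 804 and 649.5 CPM (3.67 ± 0.25 SE, adjusted p = 5.06e-09). *Lpl*, lipoprotein lipase, rose by 0.68 (adjusted p = 0.000699) while *Angptl4*, a secreted inhibitor of the lipase, fell by 0.79 on the log2 scale (adjusted p = 0.000835), and *Fabp3*, a fatty acid carrier, rose by 0.91. In all, 7 of 18 genes of this list were higher and 2 lower (5 and 4 with library size alone).

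Mitochondrial fatty acid oxidation had 10 of 21 genes higher and 4 lower, which became 6 and 6 with library size alone. *Cpt2*, of the carnitine shuttle, went from 185 ± 25.3 to 396 ± 38.3 CPM (1.10), and *Acaa2*, the thiolase that ends the cycle, from 1917 ± 136 to 1205 ± 116 CPM (-0.67). *Acad10* was also lower (-0.99, adjusted p = 0.00281). Peroxisomal lipid metabolism had 14 of 23 genes higher and 3 lower (9 and 5 with library size alone). *Ehhadh*, the bifunctional enzyme of peroxisomal oxidation, was at 8.19, 12.5, 5.62, 3.43 and 6.16 CPM and 28.6, 17.9, 20.9, 18.7 and 29.7 CPM (1.69 ± 0.25 SE, adjusted p = 4.31e-05), *Acot8* rose by 1.53, and *Abcd2*, a peroxisomal very-long-chain acyl-CoA transporter, fell by 1.61 on the log2 scale.

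Genes of glucose use were mostly higher: 16 of 21 genes of glycolysis and glucose entry, with 3 lower and a median of 1.07. *Pfkp*, a phosphofructokinase, went from 43.5, 33.1, 44.3, 31.6 and 30.0 CPM to 118, 113, 148, 132 and 126 CPM (1.81 ± 0.13 SE, adjusted p = 9.06e-09). *Hk2*, the insulin-regulated hexokinase, rose by 0.79 (adjusted p = 0.000206), and *Slc2a4*, the transporter GLUT4, by 0.54 (adjusted p = 0.00186), the latter not called with library size alone (0.31, adjusted p = 0.0699). *Gapdh* (2.16) and *Pgk1* (1.54) rose too, but both have near-identical processed copies in the genome that may take part of their reads. The mitochondrial pyruvate carrier rose in both subunits, *Mpc2* by 1.62 ± 0.17 (SE, adjusted p = 7.2e-07) and *Mpc1* by 1.08 ± 0.18 (SE, adjusted p = 9.95e-05), and *Pdk4*, a kinase that inhibits pyruvate dehydrogenase, rose as well (1.32). In the pentose phosphate and glycogen list 11 of 17 were higher and 2 lower. Among the former were *G6pdx* (1.67) and *Pgd* (1.81), which make NADPH, and *Gys2*, a glycogen synthase (1.38). *Pygb*, a glycogen phosphorylase, fell by 1.27 on the log2 scale.

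Nuclear genes for mitochondria rose by small amounts in large numbers. Of 74 respiratory chain subunits, 30 were higher and 5 lower, with a median of 0.22, and the count became 14 and 14 with library size alone. *Ndufs5* of complex I rose by 0.995 ± 0.15 (SE, adjusted p = 3.84e-05), *Uqcrfs1*, the Rieske protein, by 0.94 ± 0.13 (SE, adjusted p = 1.54e-05), *Cycs*, cytochrome c, by 0.92 ± 0.10 (SE, adjusted p = 1.43e-06), and *Cox7a1* by 0.91 ± 0.12 (SE, adjusted p = 1.39e-05). *Cox6a2*, the muscle isoform of its subunit, was lower (-1.23, adjusted p = 0.0289), with RT values of 20.6, 1.41, 20.005, 15.6 and 8.09 CPM that were highest in the mice with most muscle RNA, and the call was lost in 6 of the 10 fits that left out 1 mouse. Mitochondrial ribosomal proteins had 37 of 75 higher and 1 lower (19 and 6 with library size alone), led by *Mrpl54* (1.24). Import proteins had 12 of 21 higher and none lower (7 and 1 with library size alone), led by *Timm8b* (1.16).

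In the tricarboxylic acid cycle 5 of 17 genes were higher and 2 lower. *Idh3a*, the NAD-linked isocitrate dehydrogenase, went from 1293 ± 159 to 2157 ± 149 CPM, whereas *Idh2*, the NADP-linked enzyme, went from 319 ± 39.8 to 147 ± 19.9 CPM, and neither overlapped between groups. The SLC25 carriers, which move metabolites across the inner membrane, had 15 of 36 higher and 5 lower (11 and 8 with library size alone). *Slc25a34* rose most, from 13.4, 14.7, 8.09, 5.84 and 2.31 CPM to 66.5, 98.7, 69.5, 64.0 and 69.5 CPM (3.06 ± 0.28 SE, adjusted p = 1.96e-07), followed by the peroxisomal carrier *Slc25a17* (1.85), and *Slc25a23*, an ATP-Mg/phosphate carrier, fell most (-1.18).

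Branched-chain amino acid catabolism divided, with 5 of 20 genes higher and 8 lower, and 7 and 5 without cold mice 1 and 5. *Mcee*, methylmalonyl-CoA epimerase, rose from 111 ± 12.2 to 329 ± 42.1 CPM (1.57), and *Aldh6a1*, of valine breakdown, fell from 222 ± 21.3 to 102 ± 23.7 CPM (-1.11). In one-carbon metabolism *Mthfd2*, the mitochondrial folate enzyme, rose from 3.79, 3.43, 4.27, 2.75 and 2.31 CPM to 35.9, 19.9, 17.7, 12.6 and 21.2 CPM (2.70 ± 0.27 SE, adjusted p = 5.01e-07), and the cytosolic *Shmt1* fell by 0.81 on the log2 scale.

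Of 18 genes of the heat shock and unfolded protein responses 11 were higher and 1 lower (8 and 4 with library size alone). *Hsph1*, a co-chaperone of HSP70, went from 7.99, 14.9, 10.3, 8.24 and 9.05 CPM to 55.6, 54.3, 33.9, 49.8 and 66.8 CPM (2.37 ± 0.19 SE, adjusted p = 4.62e-08), and *Hsp90aa1* (1.79) and *Hspa8* (1.499), both with processed copies in the genome, rose as well. *Hspa5* (BiP), a chaperone of the endoplasmic reticulum, was at 268 ± 28.5 and 294 ± 10.3 CPM (adjusted p = 0.289) and *Xbp1* was lower (-0.69, adjusted p = 0.00545). Proteasome subunits had 15 of 37 higher and none lower, among them *Psmb5* (1.13) and *Psmd6* (0.89), and with library size alone 7 and 3. Cytosolic ribosomal proteins had 13 of 80 higher and 28 lower at a median of -0.17, and 6 and 44 at a median of -0.40 with library size alone. Many of these genes have processed copies. Of 27 antioxidant and glutathione genes 12 were higher and 6 lower (13 and 3 without cold mice 1 and 5). *Gpx3*, the secreted glutathione peroxidase, fell from 1071, 1518, 1482, 1415 and 1159 CPM to 254, 391, 265, 264 and 283 CPM (-2.19 ± 0.14 SE, adjusted p = 3.17e-09), and *Gstt1* fell by 1.92 on the log2 scale.

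**Figure D3:**
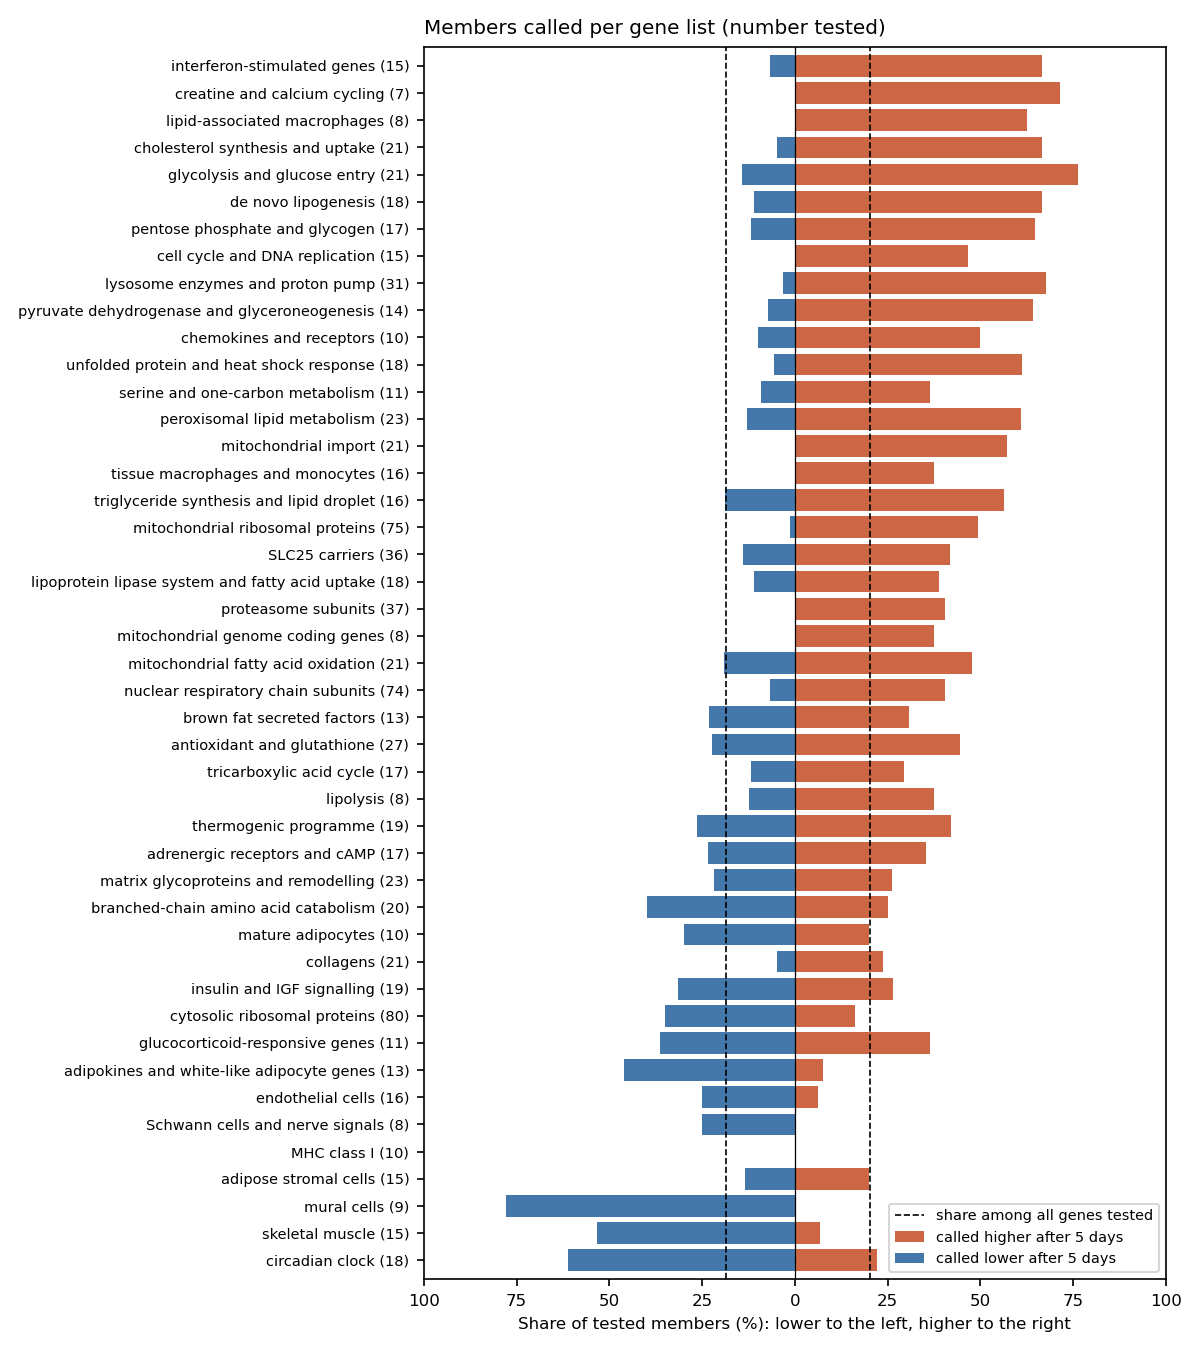
Share of the tested members of each gene list called higher (orange, right) or lower (blue, left) after 5 days, for lists with at least 7 members tested other than the mitochondrial tRNA and study-labelled genes, ordered by median log2 fold change; dashed lines give the share over all genes, 20.2% higher and 18.6% lower. Glycolysis, lysosome, sterol and interferon lists reach far to the right, and mural cell, circadian clock and skeletal muscle lists to the left.

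Clock genes were mostly lower. Clock proteins CLOCK and ARNTL drive transcription from E-box sites (CACGTG) of genes such as *Per* and *Dbp*, and PER and CRY proteins repress them in turn over the day. Of 18 clock genes 11 were lower and 4 higher, with a median of -1.13. *Dbp*, which encodes a PAR-domain activator of output genes, fell from 75.5, 51.6, 88.1, 87.6 and 101 CPM to 8.70, 9.50, 6.05, 14.2 and 6.64 CPM (-3.15 ± 0.21 SE, adjusted p = 4.95e-09). *Per3* fell from 66.9, 47.6, 73.5, 85.5 and 105 CPM to 9.60, 8.37, 9.64, 12.4 and 7.68 CPM (-2.98 ± 0.19 SE, adjusted p = 3.88e-09), and *Tef*, a relative of *Dbp*, from 140.2, 122, 134, 149 and 161 CPM to 37.9, 27.6, 27.1, 33.3 and 25.3 CPM (-2.22 ± 0.12 SE, adjusted p = 7.49e-10). The opposite arm rose: *Arntl* went from 1.20, 1.21, 1.35, 1.55 and 2.31 CPM to 7.14, 7.02, 6.95, 2.03 and 6.02 CPM (1.91 ± 0.36 SE, adjusted p = 0.000385), with cold mouse 4 inside the RT range. *Nfil3*, a repressor at the same D-box sites as DBP, rose by 1.52 and *Cry1* by 0.75. *Nr1d1*, which encodes the *Arntl* repressor REV-ERBα, was lower by a small margin (-0.46, adjusted p = 0.0463), and 7 of the 10 fits that left out 1 mouse lost that call. The labels give no hour of tissue collection.

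The E-box letters CACGTG, a palindrome and so read on both strands at once, occur in 7.15% of the 32851 RefSeq promoter windows of 300 bases (250 before to 50 after a gene start, GRCm38.p6). Among the 10551 windows of tested genes the share was 10.1%. Of the 19 clock genes 16 matched that table with 21 windows, and 6 windows of 5 genes held the letters. Of these genes *Tef* (-2.22), *Per1* (-1.02), *Bhlhe41* (-1.93) and *Ciart* (-2.15) fell, and *Cry1* (0.75) rose. Windows of a member that fell and one that rose are shown, with the E-box in capitals.
Tef (fell, chr15:81802423-81802722, plus strand): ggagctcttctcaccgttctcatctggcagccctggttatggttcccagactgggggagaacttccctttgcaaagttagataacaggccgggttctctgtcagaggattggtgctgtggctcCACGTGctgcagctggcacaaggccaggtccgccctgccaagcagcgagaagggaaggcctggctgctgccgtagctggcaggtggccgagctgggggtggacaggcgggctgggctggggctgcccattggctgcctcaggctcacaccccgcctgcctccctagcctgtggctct
Cry1 (rose, chr10:85185005-85185304, minus strand): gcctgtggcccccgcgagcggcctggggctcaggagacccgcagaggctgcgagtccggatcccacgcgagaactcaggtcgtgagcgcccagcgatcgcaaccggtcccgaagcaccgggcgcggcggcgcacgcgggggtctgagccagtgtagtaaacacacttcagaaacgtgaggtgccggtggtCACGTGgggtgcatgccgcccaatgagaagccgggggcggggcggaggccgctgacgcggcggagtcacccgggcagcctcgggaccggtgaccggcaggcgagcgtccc
In the windows shown, the E-box begins 127 bases before the gene start in *Tef* and 60 before it in *Cry1*. Another *Tef* window holds it 138 bases before the gene start. *Dbp*, *Per3*, *Cry2*, *Nr1d1*, *Nr1d2* and *Hlf* also fell, and their windows did not hold the letters. *Arntl*, *Clock* and *Nfil3* rose, also without them in their windows.

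Hormone-responsive genes were mixed. Of 11 glucocorticoid-responsive genes 4 were higher and 4 lower (3 and 5 with library size alone). *Cdkn1a*, the cell-cycle inhibitor p21, went from 34.1, 59.3, 43.8, 32.8 and 28.3 CPM to 217, 222, 163, 139.6 and 282 CPM (2.37 ± 0.20 SE, adjusted p = 7.98e-08), and *Tsc22d3* (GILZ), a classical glucocorticoid target, from 33.2 ± 3.01 to 17.8 ± 1.05 CPM (-0.90 ± 0.12 SE, adjusted p = 8.34e-06). In insulin and IGF signalling, *Pik3r1*, the regulatory subunit of PI3-kinase, fell from 185, 224, 221, 161 and 179 CPM to 69.0, 84.2, 31.6, 58.9 and 40.5 CPM (-1.77 ± 0.20 SE, adjusted p = 1.71e-06), *Irs1* fell by 1.06 on the log2 scale, and *Sik1*, a kinase induced by cAMP, rose by 1.72. *Cirbp*, named as a cold-inducible RNA-binding protein, was lower (-1.26, adjusted p = 0.000392), and *Rbm3*, its relative, was at 4.26 ± 1.23 and 3.39 ± 1.23 CPM (adjusted p = 0.422).

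Secreted products of adipocytes shifted. Of 13 adipokines and genes typical of white adipocytes, 6 were lower and 1 was higher, and the number higher was 3 without cold mouse 1, 2 without cold mouse 5 or RT mouse 3, and 4 without both cold mice 1 and 5. *Lep*, leptin, fell from 6.39, 3.43, 21.6, 11.2 and 20.02 CPM to 1.12, 2.04, 0.448, 1.02 and 1.04 CPM (-3.44 ± 0.49 SE, adjusted p = 2.56e-05), and *Adipoq*, adiponectin, from 936 ± 90.9 to 431 ± 69.6 CPM (-1.12 ± 0.12 SE, adjusted p = 9.32e-07). *Npr3*, the clearance receptor for natriuretic peptides, rose from 20.8, 19.4, 24.5, 20.8 and 18.9 CPM to 137, 152, 90.6, 107 and 155 CPM (2.62 ± 0.15 SE, adjusted p = 7.49e-10). Among factors secreted by brown fat, *Bmp8b* and *Gdf15* rose and *Nrg4*, a neuregulin, fell (-0.93, adjusted p = 3.18e-06). *Gdf15*, a stress-induced TGFβ-family ligand, had 4 counts in all RT mice and 47.3, 4.98, 3.14, 4.67 and 35.3 CPM in the cold mice, of which mice 1 and 5 held most. *Fgf21* did not pass the filter, with 1 count in the RT libraries and 23, 4, 10, 9 and 39 in the cold libraries (exact permutation test on log2 CPM, p = 0.00794, unadjusted, 1 of 16 such tests of key genes outside the filter). *Vegfa* was at 202 ± 19.2 and 236 ± 22.1 CPM (adjusted p = 0.0941).

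Proliferation genes that were called were all higher, with the size differing between mice. Of 33 listed cell-cycle genes only 15 passed the filter, 7 of them higher and none lower. Leaving out a mouse can change which genes pass, so counts from those fits are not out of these 15. They were 12 higher without cold mouse 3 and 11 without any one of RT mice 1, 2, 4 and 5. *Mki67*, which marks cycling cells, was at 0.998, 1.21, 0.674, 1.20 and 0.77 CPM at RT and 8.48, 7.92, 5.38, 8.94 and 12.7 CPM in the cold (3.12 ± 0.31 SE, adjusted p = 5.19e-07), without overlap. *Top2a*, topoisomerase IIα, was at 3.19, 2.02, 3.37, 2.92 and 5.58 CPM and 22.3, 15.4, 3.81, 10.97 and 19.9 CPM (2.07 ± 0.37 SE, adjusted p = 0.00023), with cold mouse 3 inside the RT range. *Ccnd1*, cyclin D1, rose by 2.23 ± 0.20 (SE, adjusted p = 1.7e-07). Below the filter, the mitotic kinase gene *Cdk1* had 7, 9, 2, 7 and 9 counts at RT and 20, 16, 9, 28 and 39 in the cold (exact permutation test, p = 0.00794, and 0.0423 adjusted over 16 such tests). *Birc5*, survivin, had 1, 1, 1, 5 and 1 and 22, 9, 1, 8 and 27 (exact permutation test, p = 0.0238, and 0.0635 adjusted).

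Macrophage genes differed between mice of both groups. Of 8 tested genes of lipid-associated macrophages 5 were higher, and 2 without cold mice 1 and 5. *Lgals3*, galectin-3, was at 6.19, 4.44, 8.09, 4.12 and 11.2 CPM at RT and 129, 44.4, 12.8, 58.9 and 207 CPM in the cold (3.74 ± 0.53 SE, adjusted p = 2.74e-05). *Gpnmb* was at 2.596, 3.43, 3.82, 2.23 and 5.97 CPM and 28.6, 6.56, 2.24, 7.52 and 32.0 CPM (2.09 ± 0.53 SE, adjusted p = 0.00429), and without cold mice 1 and 5 its fold change was 0.62 (adjusted p = 0.242). In *Gpnmb*, cold mice 1 and 5 stood far above RT, mice 2 and 4 slightly above it, and mouse 3 at its lower end. *Ctss*, cathepsin S, was at 13.2, 9.48, 13.9, 8.76 and 32.9 CPM and 72.1, 25.6, 14.1, 44.7 and 65.0 CPM (1.502 ± 0.38 SE, adjusted p = 0.00445), with RT mouse 5 well above the other RT mice, and it was not called without cold mice 1 and 5 (0.87, adjusted p = 0.0874). Of 16 tissue macrophage and monocyte genes 6 were higher and none lower, and 3 were higher with library size alone. With the filter applied anew, 3 were higher without any one of cold mouse 5, RT mouse 2 and RT mouse 4. The count was also 3 without both cold mice 1 and 5, and 10 without RT mouse 5. Counts from these fits may cover other genes than the 16. The median difference from the RT mean over these 16 genes was 0.47, 0.50, 0.097, 0.70 and 0.93 on the log2 scale in cold mice 1 to 5 and 0.67 in RT mouse 5, which therefore lay above cold mice 1, 2 and 3. *Cd68*, a lysosomal macrophage glycoprotein, was higher (2.14, adjusted p = 0.000458), as was *Lyve1* (1.80, adjusted p = 0.00456), while *Mrc1*, the mannose receptor, was at 17.2 ± 3.53 and 21.3 ± 2.79 CPM (adjusted p = 0.108), called higher without RT mouse 3 (0.43, adjusted p = 0.0309). *C1qa*, of complement, was called (0.73, adjusted p = 0.0288), but 5 of the 10 fits without 1 mouse lost the call. *Cd74*, the MHC class II chaperone, was lower, at 32.8 ± 8.34 and 16.4 ± 3.93 CPM (adjusted p = 0.000328). The chemokine *Ccl6* rose by 2.40 ± 0.38 (SE, adjusted p = 7.13e-05) and *Ccl8* by 2.06 ± 0.46 (SE, adjusted p = 0.00171). Lysosomal genes, which macrophages and adipocytes share, had 21 of 31 higher and 1 lower. *Ctsz*, cathepsin Z, went from 85.5, 101, 56.4, 57.4 and 55.1 CPM to 324, 390.1, 341, 364 and 378 CPM (2.34 ± 0.16 SE, adjusted p = 4.95e-09), even across the cold mice, and *Ctsd*, cathepsin D, rose by 0.90.

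Interferon-stimulated genes had a median of 2.26, with 10 of 15 higher and 1 lower, and 8 higher without cold mice 1 and 5. These genes are switched on by interferon through ISGF3 and IRF proteins, which bind the interferon-stimulated response element (ISRE). Its core, searched here as GAAANNGAAA on both strands, occurs in 3.44% of the 32851 promoter windows. Among windows of tested genes the share was 2.90%. Of the 20 listed genes, 14 matched the table with 15 windows, and 10 windows of 10 genes held it: 5 genes that rose (*Isg15*, *Ifit1*, *Ifit3*, *Rsad2* and *Bst2*), 3 that were not called (*Stat2*, *Irgm1* and *Igtp*) and 2 below the filter (*Ifit3b* and *Oas1a*). *Irf7*, *Ifi44*, *Ifit2* and *Oasl2* also rose, and their windows did not hold it. The windows of *Ifit1* and *Isg15* are shown with matches in capitals, 2 in *Ifit1* and 3 that overlap in *Isg15*.
Ifit1 (chr19:34640639-34640938, plus strand): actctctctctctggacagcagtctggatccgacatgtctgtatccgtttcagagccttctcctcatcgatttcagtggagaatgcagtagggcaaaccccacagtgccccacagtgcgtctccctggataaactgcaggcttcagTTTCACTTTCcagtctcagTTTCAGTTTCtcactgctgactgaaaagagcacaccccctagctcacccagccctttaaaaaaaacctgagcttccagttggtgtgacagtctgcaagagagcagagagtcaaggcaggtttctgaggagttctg
Isg15 (chr4:156200769-156201068, minus strand): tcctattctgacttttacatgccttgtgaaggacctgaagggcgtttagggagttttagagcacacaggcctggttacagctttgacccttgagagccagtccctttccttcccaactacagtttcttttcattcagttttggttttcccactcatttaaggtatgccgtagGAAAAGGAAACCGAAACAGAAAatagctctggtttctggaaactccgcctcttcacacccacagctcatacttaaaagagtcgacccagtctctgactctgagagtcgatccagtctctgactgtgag
The presence of these letters does not show that the site was used.

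*Irf7*, the interferon regulatory factor that amplifies the response, was at 1.80, 2.02, 3.15, 1.20 and 1.54 CPM at RT and 28.8, 7.24, 4.48, 19.5 and 38.2 CPM in the cold (3.36 ± 0.49 SE, adjusted p = 3.69e-05). *Ifit1*, which binds foreign RNA, was at 1.40, 0.807, 4.27, 2.40 and 3.47 CPM and 24.8, 7.02, 3.36, 16.7 and 56.6 CPM (3.14 ± 0.59 SE, adjusted p = 0.000415), and *Isg15*, a ubiquitin-like modifier, at 0.998, 1.61, 1.35, 2.23 and 2.31 CPM and 21.4, 6.79, 2.02, 8.13 and 28.2 CPM (2.94 ± 0.53 SE, adjusted p = 0.000287). *Rsad2*, viperin, named here after its values were seen, was at 18.8, 22.4, 24.7, 29.2 and 33.7 CPM and 287, 62.7, 31.8, 98.2 and 378 CPM (2.73 ± 0.48 SE, adjusted p = 0.000217). In all 4 genes cold mice 1 and 5 were highest, mouse 4 next and mouse 3 lowest, at or near the RT range. The median difference from the RT mean over the 15 tested genes was 2.88, 1.30, 0.25, 1.85 and 2.86 on the log2 scale in cold mice 1 to 5, and 1.70, 0.87, -0.27, 1.23 and 1.75 over the lipid-associated macrophage genes. *Ifi27l2a* was lower (-0.73, adjusted p = 0.00853), with RT mouse 3 above the other RT mice, and that call was lost without cold mice 1 and 5 (-0.61, adjusted p = 0.0556) and without RT mice 1 and 3 (-0.48, adjusted p = 0.0750). Of 10 MHC class I genes edgeR and DESeq2 called none, with 1 at an unadjusted p below 0.05, and edgeR called 3 lower without cold mice 1 and 5.

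**Figure D4:**
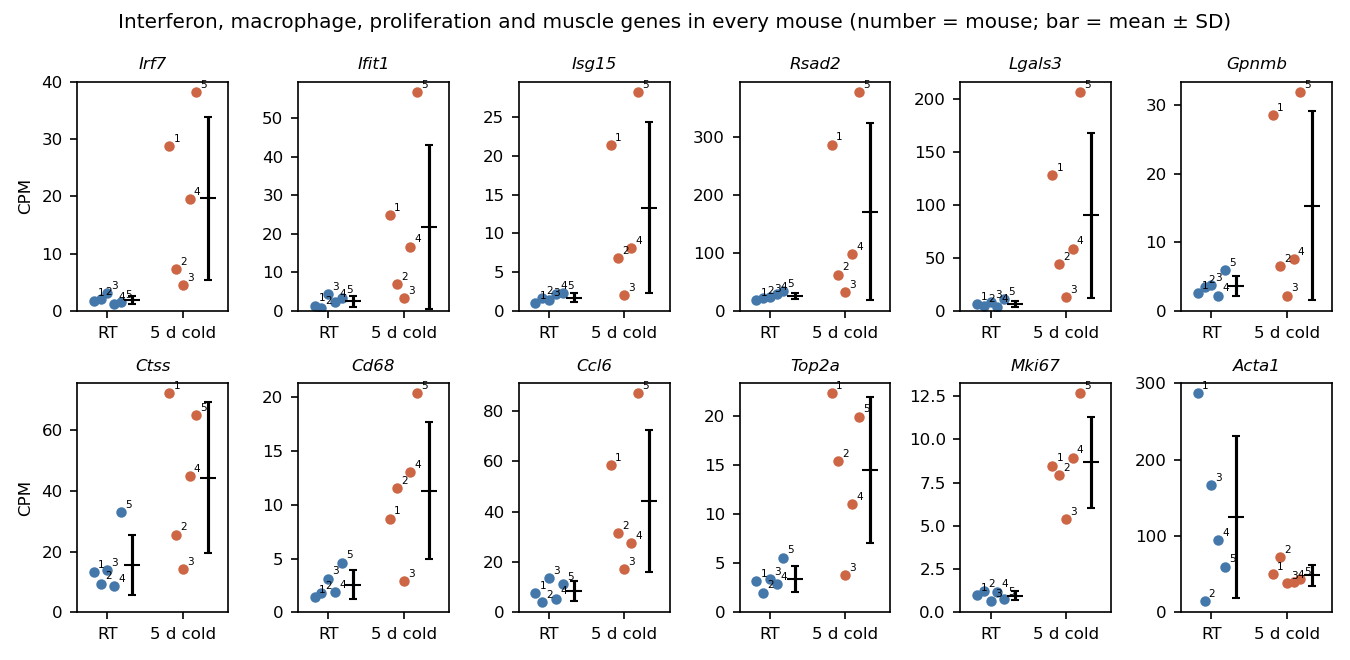
CPM of interferon (*Irf7*, *Ifit1*, *Isg15*, *Rsad2*), macrophage (*Lgals3*, *Gpnmb*, *Ctss*, *Cd68*), chemokine (*Ccl6*), proliferation (*Top2a*, *Mki67*) and muscle (*Acta1*) genes in each RT mouse (blue) and each mouse after 5 days of cold (orange), numbered within groups, with mean ± SD. Cold mice 1 and 5 are high in the interferon genes and *Gpnmb*, cold mouse 3 is the lowest of its group in every panel, and *Acta1* is highest in RT mice 1 and 3.

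Stromal and matrix genes were called in both directions. Of 15 stromal cell genes 3 were higher (20%) and 2 lower (13.3%), near the 20.2% and 18.6% over all genes tested. These were 2 and 5 with library size alone, and 2 and 3 without cold mice 1 and 5. *Pdgfra*, which marks the progenitors, was at 11.5 ± 2.13 and 9.54 ± 2.26 CPM (adjusted p = 0.303), *Ly6a*, encoding SCA1, rose by 0.86 (adjusted p = 0.00126), *Gsn*, gelsolin, fell by 1.00 on the log2 scale, and *Dcn*, decorin, fell by 0.38, a call lost without any one of cold mouse 1, cold mouse 3 and RT mouse 3. Of 21 collagen genes 5 were higher (23.8%) and 1 lower (4.8%). These were 4 and 6 with library size alone, and 4 and 6 without cold mice 1 and 5. In fits without 1 mouse, 1 to 6 were lower. *Col4a1*, of basement membranes, rose by 0.77 (adjusted p = 8.37e-05) and *Col5a3* by 0.82 (adjusted p = 0.000589), while the fibrillar *Col1a1* was at 230.2, 82.9, 103, 103 and 92.8 CPM and 128, 128, 66.4, 90.6 and 175 CPM (adjusted p = 0.884) and *Col3a1* at 185 ± 42.8 and 183 ± 74.3 CPM (adjusted p = 0.968). Of 23 genes of matrix glycoproteins and remodelling 6 were higher (26.1%) and 5 lower (21.7%), also near the shares over all genes. The counts were 1 and 5 with library size alone, and 3 and 2 without cold mice 1 and 5. Without RT mouse 3, 3 were higher, and without RT mouse 4, 2 were. *Loxl1*, a crosslinking enzyme, rose by 1.80 ± 0.27 (SE, adjusted p = 3.77e-05), and *Timp3*, a metalloproteinase inhibitor, fell by 1.26 (SE 0.13, adjusted p = 7.21e-07).

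Mural cell genes, which mark pericytes and smooth muscle of vessels, were lower in 7 of 9, with none higher, and their summed level was 461 to 485 CPM at RT and 278 to 353 CPM in the cold. *Mcam* (-1.19, adjusted p = 0.00134) and *Myh11*, smooth muscle myosin (-1.03, adjusted p = 0.00409), were among them. Endothelial genes had 1 of 16 higher, *Eng* (1.09, adjusted p = 0.000307), and 4 lower (7 with library size alone), among them the apelin receptor *Aplnr* (-1.32, adjusted p = 0.00156), with *Pecam1* at 50.9 ± 6.20 and 57.2 ± 16.5 CPM (adjusted p = 0.446). *Ntrk3*, the neurotrophin-3 receptor, fell from 158, 113, 202, 189 and 166 CPM to 29.9, 24.4, 46.6, 47.4 and 24.5 CPM (-2.26 ± 0.19 SE, adjusted p = 9.72e-08). *Ntrk3* alone made up most of the summed Schwann list at RT, which ran over 165 to 284 CPM at RT and 94.1 to 115 CPM in the cold.

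Markers of other tissues that could be in a dissected pad were read the same way. Skeletal muscle genes summed to 1538, 178, 1181, 636 and 429 CPM in RT mice 1 to 5 and to 366 to 472 CPM in the cold mice. Of 15 muscle genes 8 were lower, a count of 2 without RT mouse 1 or without RT mouse 3, 5 without cold mouse 3 or 4, 2 without both cold mice 1 and 5, 3 in DESeq2, 13 with library size alone, 14 without RT mouse 2, 13 without RT mouse 5 and 0 without both RT mice 1 and 3. *Acta1*, skeletal actin, was at 287, 14.7, 167, 94.95 and 60.1 CPM and 49.8, 72.0, 38.1, 39.4 and 43.4 CPM (adjusted p = 0.0248, lost in 5 of 10 fits without 1 mouse), and *Myh2* was lower (-2.50, adjusted p = 0.00376), a call lost without RT mice 1 and 3 (-1.37, adjusted p = 0.0747). *Ckm*, muscle creatine kinase, was at 52.4 ± 40.1 and 26.3 ± 5.58 CPM (-0.99, adjusted p = 0.0622), and was called lower with library size alone (-1.20, adjusted p = 0.0232), with no filter and without RT mouse 2 or 5, but had a fold change of 0.094 without RT mice 1 and 3. The one muscle-list gene that rose was *Mb*, myoglobin, which brown adipocytes also express, from 24.4, 1.81, 13.9, 12.5 and 8.09 CPM to 51.3, 30.1, 53.6, 72.2 and 55.0 CPM (2.11 ± 0.35 SE, adjusted p = 0.000119). Erythroid genes had 3 of 5 higher, with *Hbb-bs*, a β-globin whose close paralogue *Hbb-bt* may share reads, at 1218 ± 189 and 2565 ± 615 CPM, and summed to 1892 to 2440.3 CPM at RT and 2798 to 5168 CPM in the cold. No epithelial gene passed the filter, and of 13 lymphocyte genes 1 did, the immunoglobulin gene *Ighm*, which was higher. *Cd79a* was at 0 in all 10 libraries. Mature adipocyte genes summed to 13597 to 17260.0 CPM and 12282 to 13384 CPM, without overlap, but such a sum is weighted towards the most abundant members. Of these 10 genes 2 were higher (20%) and 3 lower (30%), at a median of -0.05 against -0.02 over all genes. With library size alone the counts were 0 and 5. The part of muscle, blood or adipocyte content in the other fold changes was not tested.

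The genes that the study labels in its own heatmap were chosen from these samples, so their direction is no independent evidence: 5 of 6 acute, 9 of 9 chronic and 4 of 4 tested delayed genes (of 7) were higher after 5 days and none lower. The paper describes its acute cluster as back at control levels once cold is chronic. Of the genes it names there, *Ucp1* (1.98), *Dio2* (3.21) and *Ppargc1a* (1.97) were still above RT after 5 days, and *Nr4a1* is not reported here. Compared with 6 hours of cold, 4 of the 6 labelled acute genes were lower after 5 days and none higher, at a median of -1.32.

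The 5-day tissue was then set against 4 days to ask whether expression still moved. Of 10651 genes tested, edgeR called none (0.0%), with a smallest adjusted p of 0.183, while 742 genes (6.97%) had an unadjusted p below 0.05 and DESeq2 called 7. Those 7 were *Egr1*, an immediate-early gene, higher, and *Ckb*, *Hlf*, *Tef*, *Nmb*, *F2r* and *Ccr10* lower. *Ckb* was at 448 ± 121 CPM after 4 days and 251.9 ± 42.3 CPM after 5 days (edgeR adjusted p = 0.205, with CPM scaled within that comparison), and *Tef* at 45.4 ± 7.30 and 28.8 ± 5.00 CPM (edgeR adjusted p = 0.294). The 95% interval had a median half-width of 0.39, and it lay inside -1 to 1 for 9095 genes (85.4%). Among named genes the difference was 0.22 (95% interval -0.09 to 0.54) for *Ucp1*, 0.33 (95% interval 0.06 to 0.61) for *Elovl3*, 0.32 (95% interval -0.07 to 0.72) for *Acsl5* and -0.99 (95% interval -1.53 to -0.46) for *Dbp*. For genes that varied between mice it was wide, -0.07 (95% interval -1.39 to 1.26) for *Lgals3* and -0.22 (95% interval -1.36 to 0.92) for *Irf7*, so a change of that size from day 4 to day 5 was not detectable here.

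Against 6 hours of cold, 3687 of 10294 genes (35.8%) differed, 1952 higher after 5 days (19.0%) and 1735 lower (16.9%). The 5-day libraries are the same as above, so this is not a second test of them. *Ucp1* was not called (0.08, adjusted p = 0.657), while *Dio2* was lower after 5 days than after 6 hours by 2.20 and *Ppargc1a* by 1.65 on the log2 scale. De novo lipogenesis had 15 of 18 genes higher after 5 days and none lower, among them *Acly* (3.79, adjusted p = 1.69e-10) and *Fasn* (2.69, adjusted p = 2.5e-09). *Bmp8b* was higher by 4.80 (adjusted p = 6.1e-09) and *Elovl3* by 1.94 (adjusted p = 7.1e-08). Glucocorticoid-responsive genes had 9 of 11 lower, including *Cdkn1a* (-1.35, adjusted p = 1.31e-06), proteasome subunits 9 of 37 lower and 2 higher, and *Hsph1* was lower (-0.77, adjusted p = 0.00072). *Dbp* (-0.44, adjusted p = 0.152) and *Per3* (-0.30, adjusted p = 0.244) did not pass the threshold, and *Tef* did (-1.54, adjusted p = 6.19e-09). Interferon-stimulated genes had 10 of 14 higher after 5 days, with *Irf7* higher by 4.44 (adjusted p = 2.35e-06).

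**Figure D5:**
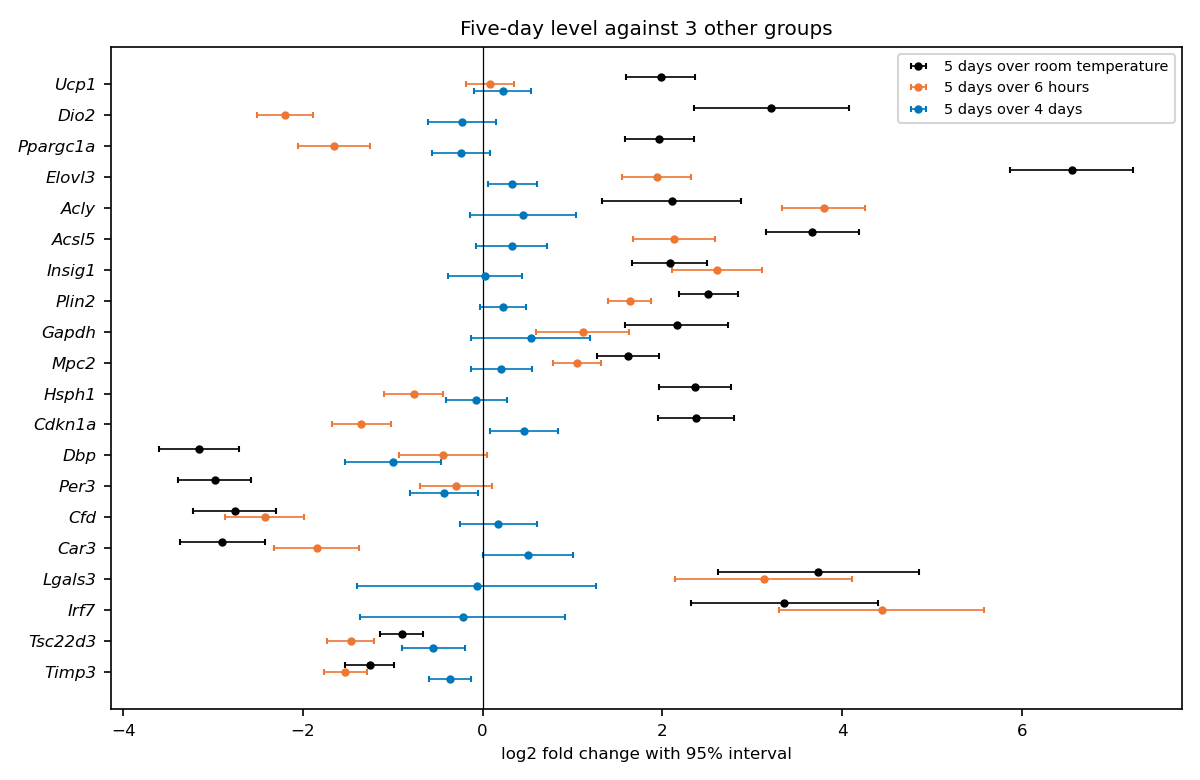
Log2 fold change of the 5-day level over RT (black), over 6 hours (orange) and over 4 days (blue) for 20 genes, with 95% intervals. *Dio2*, *Ppargc1a*, *Hsph1* and *Cdkn1a* are above RT but below 6 hours, *Elovl3*, *Acly* and *Acsl5* are above both, and the values over 4 days lie nearest to 0 in most genes, with the widest intervals in *Lgals3* and *Irf7*.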

How the data were processed

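The deposited table holds raw counts per gene for 35 iBAT libraries (QuantSeq 3′ FWD), made by the authors from reads aligned with STAR 2.6.1d to GRCm38 and counted with HTSeq 0.11.2. Strand and multi-mapping settings are not given in the sources used here. The table has 55421 rows, of which 267 have no symbol. Rows without a symbol were tested where they passed the filter, but not named. Counts of the 10 libraries were filtered (filterByExpr), scaled by TMM and tested with edgeR 4.0.16 (quasi-likelihood F-test, Benjamini-Hochberg adjusted p below 0.05) in R 4.3.3. CPM are counts over TMM-scaled library size. The pipeline was tested on simulated data. Single values used exact two-sided permutation tests over 252 splits. Total counts of 4200294 to 5709449 per library limit precision for low genes, and counting intervals cover counting error only. Each library is 1 mouse, so the tests set the difference between groups against the spread between mice.

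Genes were named by a rule: the 12 largest changes in each direction among called genes that averaged 50 counts or more and did not overlap between groups, key genes and the 3 largest changes in each direction of 54 lists (average of 20 counts or more), and genes labelled by the study. A few genes under the rule are not reported here. The comparison, lists and members were chosen with earlier results of these data known. Alternatives were DESeq2 1.42.0, RLE scaling, library size alone, TMM without mitochondrial genes and Gm42418, no filter, at least 10 counts in at least 5 libraries, all 7 groups in 1 fit, a block for the replicate number, and each mouse left out in turn. Fits without cold mice 1 and 5, and without RT mice 1 and 3, were added after seeing the data. Promoter windows came from RefSeq and tRNA genes from GENCODE. Replicate numbers did not pair the mice.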

Additional observations from a re-analysis of the deposited data

Results flagged for a closer look

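In 28 of 350 groups of 5 mice (175 genes examined one by one in each of the RT and 5-day groups) the highest or lowest mouse lay far from the other 4 by Dixon's criterion, which chance alone meets in about 1 group in 20.

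Cold mouse 2 was such a mouse for 8 genes: it was the highest of its group for *Aqp1* (37.6 CPM), *Car3* (1644 CPM), *Apoe* (341 CPM), *Ces1f* (14.9 CPM), *Abcd2* (32.1 CPM), *Slc25a34* (98.7 CPM) and *Gpx3* (391.3 CPM), and the lowest for *Plin4* (131.7 CPM). Of these, all but *Slc25a34* fell in the cold group as a whole. Cold mouse 4 was highest for *Slc16a7* (4.07 CPM) and *Scd2* (152 CPM), and lowest for *Dio2* (199.8 CPM) and *Arntl* (2.03 CPM). Cold mouse 5 was highest for *Sqle* (10.6 CPM), and cold mouse 3 lowest for *Tsc22d3* (15.9 CPM).

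Among RT mice, mouse 1 was highest for *Gm32468* (2.596 CPM), *Alpl* (5.99 CPM), *Timm8b* (63.9 CPM), *Mcee* (132 CPM) and *Col1a1* (230.2 CPM). Mouse 2 was highest for *Svep1* (88.1 CPM) and lowest for *5930430L01Rik* (9.88 CPM) and *Srebf1* (53.6 CPM). Mouse 3 was highest for *mt-Tl2* (5.40 CPM) and *Ifi27l2a* (560.1 CPM) and lowest for *Sqle* (0.450 CPM) and *Fabp3* (439.9 CPM). Mouse 5 was highest for *Ctss* (32.9 CPM) and lowest for *Plin4* (236.4 CPM).

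In 3 of these genes every mouse after 6 hours lay on one side of the RT range and every mouse after 5 days on the other. *Tsc22d3* had a mean of 31.9 CPM at RT, 48.1 CPM after 6 hours and 17.2 CPM after 5 days, scaled over all 35 libraries, with a log2 fold change of 5 days over 6 hours of -1.47 (edgeR adjusted p = 1.91e-08). *Timp3* had 240.2, 294 and 100.9 CPM (-1.53, adjusted p = 2.97e-09). *Col5a3* went the other way, with 22.8, 15.2 and 40.2 CPM (1.43, adjusted p = 1.46e-06).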

How the results depend on the processing

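The counts of genes higher and lower after 5 days than at RT stayed within 1.5 times of 2167 and 1998 under every alternative run except library size alone, which gave 1194 and 3347. Counts ranged from 1893 to 2173 higher and from 1691 to 1972 lower when 1 mouse was left out. Against 4 days, DESeq2 called 1 gene higher and 6 lower, no filter on low counts gave 40 and 58, and leaving out 1 mouse gave 0 to 1 lower (*Bdh1*, without cold 4 days mouse 1). The share of counts on mitochondrial genes was 0.256 points higher in the cold (exact permutation test, p = 0.913), from -0.840 to 1.90 points when 1 mouse was left out, so it has no settled direction. The cause of these moves was not tested.

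Of 175 genes examined one by one 157 were called. Directions turned only for genes that were not called. With library size alone these were *Cidea* (-0.22), *Scd1* (-0.14), *Lipe* (-0.072), *mt-Co1* (-0.094), *Hspa5* (-0.096), *Vegfa* (-0.018) and *Pecam1* (-0.072). Without cold mice 1 and 5 they were *Pnpla2* (0.0092) and *mt-Cytb* (0.066), without RT mice 1 and 3 *Col1a1* (0.35), *Col3a1* (0.20) and *Ckm* (0.094, against -0.99 with all 10 mice), and with no filter *Col3a1* (0.019). With 1 mouse left out, *Cidea* ranged from -0.048 to 0.090, *Col1a1* from -0.24 to 0.30 and *Col3a1* from -0.25 to 0.16. The 2 fits added after seeing the data lost 6 calls each, and the one without RT mice 1 and 3 gained 2. Library size alone lost 3 calls and gained 4, all lower: *Adrb1*, *Pnpla2*, *mt-Cytb* and *Ckm*. The stricter filter changed none.

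Same-numbered mice did not deviate together (correlations of -0.03 to 0.08), so the numbers are names only. A replicate block gave 2110 higher and 1917 lower and lost the calls of *Cox6a2* (-1.03, edgeR adjusted p = 0.0757) and *Acta1* (-0.99, edgeR adjusted p = 0.101). Depth limits low genes: 18 of 33 cell-cycle genes and 12 of 13 lymphocyte genes did not pass the filter. The 16 key genes below it have only counts and exact permutation tests, with p-values adjusted over those 16 tests where stated.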

Other observations

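Key genes of lists that did not pass the filter on low counts are given as counts in mice 1 to 5 of each group. The chemokine gene *Ccl2* had 0, 0, 3, 3 and 5 counts at RT and 30, 7, 3, 16 and 67 in the cold (exact permutation test on log2 CPM, two-sided p = 0.0238, and 0.0635 adjusted over 16 such tests). The T cell gene *Cd3e* had 5, 8, 2, 3 and 6 counts at RT and 1, 0, 0, 0 and 0 in the cold (exact permutation test, p = 0.00794, unadjusted). The macrophage receptor gene *Trem2* had 1, 0, 0, 3 and 5 counts and 11, 1, 0, 8 and 11 counts (exact permutation test, p = 0.127, unadjusted).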
